A study of Fragaria x ananassa with 9 samples.

Results

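PDF1, CYP77A4 and WIN1 are 3 of the 50285 unigenes of a petal transcriptome of pink-flowered strawberry, and each is named for a gene of the outer cell layer or of the cuticle that covers it. They were taken by their unigene identifiers, TRINITY_DN13966_c0_g1 for PDF1, TRINITY_DN17679_c0_g1 for CYP77A4 and TRINITY_DN16455_c0_g2 for WIN1, and were chosen by their known TPM and stage differences in these same libraries, so that their own courses are given as a description, without a test. RNA came from petals of the cultivar Sijihong, a dark red-flowered line from the cross of Pink Princess and Pretty Beauty, at 3 stages, with 3 biological replicates of each: PF_L is the young bud, PF_Z the bud as coloration begins, and PF_D the big bud. The stages differ in the age of the bud and in petal color together, and there was no white-flowered or untreated reference among the 9 libraries. The values are TPM, transcript abundances that the authors scaled for the length of the unigene and for the total of the library. Read counts were not used here, and how deeply each value was sampled is unknown.

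The epidermis of a petal arises from the outermost cell layer of the flower meristem, which keeps its identity through HD-ZIP class IV transcription factors such as ATML1 and PDF2 of Arabidopsis. PDF1 (protodermal factor 1) is a proline-rich extracellular protein made in that layer in Arabidopsis, and its promoter is a classic target of these factors. The cuticle on the outer wall consists of cutin, a polyester of hydroxylated and epoxidized fatty acids, and of waxes made from very-long-chain fatty acids. CYP77A4 belongs to the cytochrome P450 family CYP77, whose Arabidopsis members act on fatty acids, with CYP77A4 known as an epoxidizing enzyme and CYP77A6 as the enzyme that hydroxylates cutin monomers of flowers. WIN1, also called SHINE1, is an AP2 transcription factor that activates cuticle genes in Arabidopsis, and the SHINE factors are known there to shape the surface of petals.

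The deposited annotation gives these names from protein matches. PDF1 was described as protodermal factor 1, had a length of 1188 bp and joined 6 assembled transcripts. CYP77A4 was described as cytochrome P450 77A4, had 1867 bp and joined 5 transcripts. WIN1 was described as ethylene-responsive transcription factor WIN1, had 1097 bp and joined 3 transcripts. Each had its closest match in the woodland strawberry Fragaria vesca, where the model behind WIN1 is marked as a low-quality protein. The names therefore rest on sequence likeness alone, and copies of a gene from the subgenomes of this polyploid may be joined in a single unigene.

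The petal label and the outer cell layer were checked by marker genes. The 3 unigenes of the petal identity genes FBP1 and PMADS2 summed to 1677 to 2233 TPM in all 9 libraries, and the 3 unigenes described as the stamen and carpel gene AGAMOUS (AG and AG1) to 1.70 to 13.1 TPM. The AG1 unigenes best match a SHATTERPROOF-like protein of strawberry. The 9 unigenes of epidermal HD-ZIP class IV factors, taken by gene symbol, summed to 439 to 496 TPM in PF_L, 318 to 498 TPM in PF_Z and 348 to 487 TPM in PF_D. These ranges overlapped, which holds only for the set as taken. It left out ROC3 for its symbol, though ROC3 best matches HDG5 of strawberry and averaged 70.8 TPM in PF_L and 1.44 TPM in PF_D. The sum pools unequal courses, since HDG2 (-1.53 on the log2(TPM + 1) scale) and HDG11 (-3.03) were called lower in PF_D than in PF_L and the other 7 were not called. Of the listed HD-ZIP class IV unigenes that this marker set does not hold, ROC3 (-4.87) and ROC2 of TRINITY_DN28265_c1_g3 (-1.38) were called lower too. ROC6 (0.38), ROC5 (-0.008) and ROC2 of TRINITY_DN28265_c1_g2 (-0.0002) were not called. HDG2, ROC5 and the ROC2 unigenes are named after their values were seen. The 11 unigenes of anther and pollen wall genes summed to 42.9 to 58.2 TPM, and 1 of them, of CYP704B1, was listed at 0 in all PF_D libraries. This sum pools unequal courses too, since 4 were called lower in PF_D than in PF_L, and 1 was not tested. The 1 called higher, of TKPR2, averaged 29.6 TPM in PF_D and 10.9 TPM in PF_L. The 31 unigenes with KEGG numbers of light-harvesting proteins, markers of green tissue, of which 1 (PCMP-H12) is described as a pentatricopeptide repeat protein, summed to 5057 to 7973 TPM in PF_L, 1734 to 6665 TPM in PF_Z and 498 to 1933 TPM in PF_D, and 27 of them were called lower in PF_D than in PF_L by limma. The 10 phloem unigenes summed to 1215 to 1310 TPM in PF_L, 692 to 937 TPM in PF_Z and 299 to 636 TPM in PF_D. Of these, 1 was not tested by limma, 4 were called lower in PF_D than in PF_L and 2, of SEOB and PP2A1, higher. Over all unigenes tested, 15.7% were called lower in PF_D than in PF_L and 9.38% higher. The part of these tissues in the results below was not tested.

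PDF1 was among the most abundant unigenes of the young bud and was scarce in the big bud. It was at 472, 540 and 504 TPM in the PF_L libraries, 35.8, 76.6 and 72.6 TPM in PF_Z, and 1.98, 0.99 and 0.63 TPM in PF_D. No library of a stage overlapped with one of another stage, and replicate 1 was the lowest in PF_Z and the highest in PF_D. Counted from the most abundant of the 50285 unigenes, PDF1 held places 161 to 216 in PF_L, 2236 to 4887 in PF_Z and 31908 to 43102 in PF_D. The mean was 1.20 ± 0.699 TPM in PF_D and 505 ± 34.1 TPM in PF_L (SD, n = 3 each), which is 421-fold lower in PF_D. On the log2(TPM + 1) scale the difference was -7.89 (standard error 0.30), made up of -3.09 for PF_Z against PF_L and -4.80 for PF_D against PF_Z. The first step thus held 39.1% of the whole difference on that scale. As RNA came from bulk petal tissue, fewer cells of the outer layer in the sample and less PDF1 RNA per cell cannot be told apart.

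CYP77A4 followed a similar course that was steeper early on. It was at 115, 152 and 122 TPM in the PF_L libraries, 3.99, 8.20 and 8.04 TPM in PF_Z, and was listed at 0, 0.05 and 0.09 TPM in PF_D. The stages did not overlap, and replicate 1 was again the lowest of PF_Z, while in PF_D the order of the replicates was the opposite of that of PDF1. CYP77A4 held places 979 to 1380 in PF_L and 16164 to 22440 in PF_Z, and in PF_D no library placed it above 45435. The mean was 6.74 ± 2.39 TPM in PF_Z and 129 ± 19.5 TPM in PF_L (SD, n = 3 each), a 19.2-fold lower level in PF_Z. On the log2(TPM + 1) scale PF_D differed from PF_L by -6.95 (standard error 0.25), with -4.12 for PF_Z against PF_L and -2.83 for PF_D against PF_Z. The first step held 59.2% of this difference, but the added 1 TPM sets the size of the second step at such low values (-5.52 with 0.1 TPM added and -1.20 with 5 TPM added).

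WIN1 was low in the young bud and high at both later stages. It was at 3.67, 2.53 and 3.44 TPM in the PF_L libraries, 66.1, 48.1 and 84.1 TPM in PF_Z, and 69.8, 73.5 and 98.2 TPM in PF_D. Both later stages lay above all PF_L libraries and overlapped with each other, so the levels of PF_Z and PF_D did not differ beyond their spread. WIN1 held places 26494 to 30675 in PF_L, 1974 to 3721 in PF_Z and 1781 to 2633 in PF_D. The mean was 66.1 ± 18.0 TPM in PF_Z and 3.21 ± 0.603 TPM in PF_L (SD, n = 3 each), a 20.6-fold higher level in PF_Z. On the log2(TPM + 1) scale WIN1 differed by 3.97 for PF_Z against PF_L and by 0.30 for PF_D against PF_Z (standard error 0.22 each), so that the first step held 93.0% of the difference between PF_D and PF_L of 4.27. As a background, the libraries of PF_D and PF_L did not overlap in 50.2% of the 47924 unigenes that passed the filter, those of PF_Z and PF_L in 31.4% and those of PF_D and PF_Z in 40.7%.

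**Figure D1:**
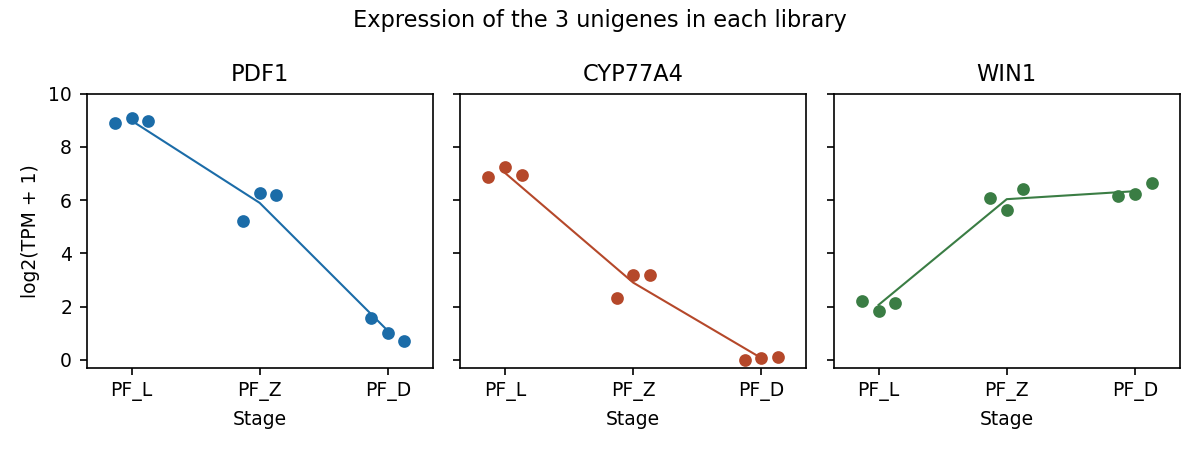
Expression of PDF1, CYP77A4 and WIN1 as log2(TPM + 1) in each of the 9 libraries (points) by stage, with lines through the stage means. PDF1 and CYP77A4 are lower at each later stage, down to at most 1.98 and 0.09 TPM in PF_D, while WIN1 is between 2.53 and 3.67 TPM in PF_L and between 48.1 and 98.2 TPM in both later stages.

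The order of the 3 unigenes within a library differed between stages. In PF_L the order was PDF1, CYP77A4 and WIN1 in all 3 libraries. In PF_Z replicates 1 and 3 WIN1 stood above PDF1 (66.1 against 35.8 TPM and 84.1 against 72.6 TPM), while in PF_Z replicate 2 it stood below (48.1 against 76.6 TPM). CYP77A4 was the lowest of the 3 in all PF_Z and PF_D libraries, and WIN1 the highest in all PF_D libraries. Over the 9 libraries the Pearson correlation of log2(TPM + 1) was 0.97 between PDF1 and CYP77A4, -0.83 between PDF1 and WIN1 and -0.93 between CYP77A4 and WIN1. These correlations follow the stage differences for which the unigenes were known, and the points share their libraries.

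The families of CYP77A4 and WIN1 held relatives with other courses. The only other CYP77 unigene, CYP77A3 (TRINITY_DN19518_c0_g1, 1815 bp, named after a soybean P450), was at 81.9, 53.1 and 67.1 TPM in PF_L, 165, 131 and 263 TPM in PF_Z and 307, 303 and 318 TPM in PF_D. It rose between PF_L and PF_Z by 1.41 on the log2(TPM + 1) scale (standard error 0.25, limma adjusted p = 0.008), and PF_D stood 2.20 above PF_L (standard error 0.25, limma adjusted p = 9.4e-05). CYP77A3 was higher in each PF_D library than in each PF_Z library, but that difference of 0.79 stayed under the limit of 1 that was set for a call, which it passed without PF_Z replicate 3 (1.07, adjusted p = 0.004). CYP77A4 thus made up 58.3 to 74.0% of the summed CYP77 TPM in PF_L, 2.36 to 5.91% in PF_Z and at most 0.0283% in PF_D. The sum itself was 189 to 205 TPM in PF_L, 139 to 271 TPM in PF_Z and 303 to 318 TPM in PF_D, and was highest in the stage where CYP77A4 was hardly present.

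A second unigene named WIN1 (TRINITY_DN14352_c1_g4, 703 bp) ran against the first. It was at 2.5, 9.80 and 5.52 TPM in PF_L, 0.68, 0.55 and 1.09 TPM in PF_Z and 0.17, 0.06 and 0.19 TPM in PF_D. It fell between PF_L and PF_D by 2.46 on the log2(TPM + 1) scale (standard error 0.39, limma adjusted p = 8.9e-04). It needed the PF_L libraries to pass the filter, and the call was kept with no filter. Its fall of 1.83 between PF_L and PF_Z (limma adjusted p = 0.019) was lost in 6 of 17 alternatives, among them without PF_L replicate 2 or 3 and without PF_Z replicate 1 or 2 (adjusted p = 0.058 to 0.074). SHN2 (TRINITY_DN14254_c0_g5), the relative of SHINE2, was at 25.8, 18.1 and 21.4 TPM in PF_L, 39.7, 40.0 and 65.9 TPM in PF_Z and 39.9, 28.1 and 40.7 TPM in PF_D. SHN2 rose by 1.09 between PF_L and PF_Z (standard error 0.23, limma adjusted p = 0.019), a call lost without PF_L replicate 2 or 3 (adjusted p = 0.075 and 0.068) and, with a difference of 0.86, without PF_Z replicate 3. Between PF_D and PF_L its difference of 0.70 was under the limit.

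Of the summed TPM of the 3 WIN1 and SHINE unigenes, WIN1 of TRINITY_DN16455_c0_g2 made up 8.32 to 11.5% in PF_L, 54.3 to 62.1% in PF_Z and 63.5 to 72.3% in PF_D. The same assembly cluster held 1 more unigene, TRINITY_DN16455_c0_g1 (472 bp), which has no protein match. It was at 0.17, 0 and 0 TPM in PF_L, 0.74, 0.40 and 0.92 TPM in PF_Z and 4.87, 2.54 and 2.36 TPM in PF_D, so it passed the filter through PF_D alone and is given without a test. How reads were shared among such neighbors is not given in the sources used here. PDF1 and CYP77A4 had no other unigene in their clusters, and no other unigene was described as protodermal factor 1.

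**Figure D2:**
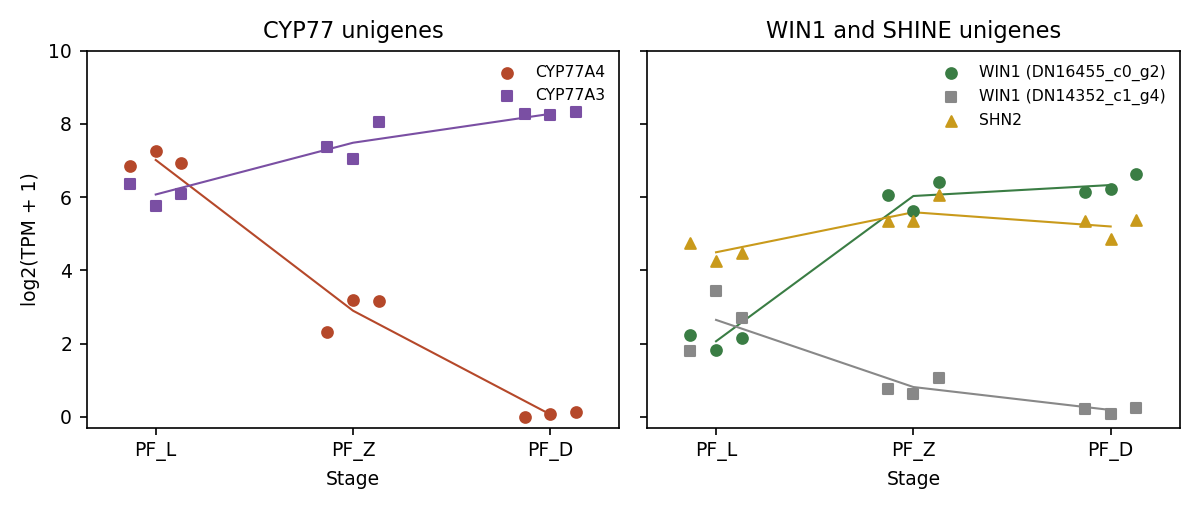
Expression as log2(TPM + 1) in each library (points) and stage means (lines) of the CYP77 unigenes (left) and of the WIN1 and SHINE unigenes (right). CYP77A4 and CYP77A3 cross between PF_L and PF_Z, and the unigenes named WIN1 run in opposite directions.

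Other genes of the outer cell layer and the cuticle were taken from a list of 114 unigenes with 54 gene names in 4 groups, without PDF1, CYP77A4 and WIN1 themselves. The list was chosen with earlier results of these data known. Calls, higher or lower, took a difference of at least 1 on the log2(TPM + 1) scale and a limma adjusted p under 0.05 over all 47924 unigenes tested, which 25.1% of these met for PF_D against PF_L, 6.84% for PF_Z against PF_L and 18.0% for PF_D against PF_Z. All 114 passed the filter of 1 TPM in 3 libraries. Of these, 10 needed the libraries of a single stage to pass, among them HDG11 and the second WIN1 unigene (PF_L), and 3 had no passing library in any other stage (CUT1 in PF_L, MYB30 and 1 GPAT6 in PF_D). The filter thus favored a difference in these 10, of which 8 were called between PF_D and PF_L. Between PF_D and PF_L, 32 of the 114 were called higher (28.1%, against 9.38% of all unigenes tested) and 25 lower (21.9%, against 15.7%). Between PF_Z and PF_L, 17 were higher (14.9%, against 2.15%) and 8 lower (7.02%, against 4.70%). Between PF_D and PF_Z, 27 were higher (23.7%, against 8.89%) and 18 lower (15.8%, against 9.07%). Several unigenes can share a gene name. Counted by name, 17 of the 54 held a unigene called higher and 18 held one called lower for PF_D against PF_L. These counts were 14 and 8 for PF_Z against PF_L, and 17 and 12 for PF_D against PF_Z. No share over the names of all unigenes was computed to set beside them. A name with more unigenes also has more occasions to hold a call. With median-ratio scaling the split was 32 higher and 17 lower for PF_D against PF_L, and 22 higher and 22 lower for PF_D against PF_Z. The count of 8 lower in PF_Z was 3 without PF_L replicate 2 or 3, 4 without PF_Z replicate 1 and 13 without PF_Z replicate 3. Calls over all unigenes in either direction moved as well, from 3280 to 1628 or 1458, 2091 and 4694 in the same fits. The median difference of the list was 0.07 for PF_D against PF_L and -0.04 for PF_Z against PF_L, beside -0.12 and -0.21 over all unigenes, which a median-ratio scaling of the libraries brought to -0.02 and -0.03.

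**Figure D3:**
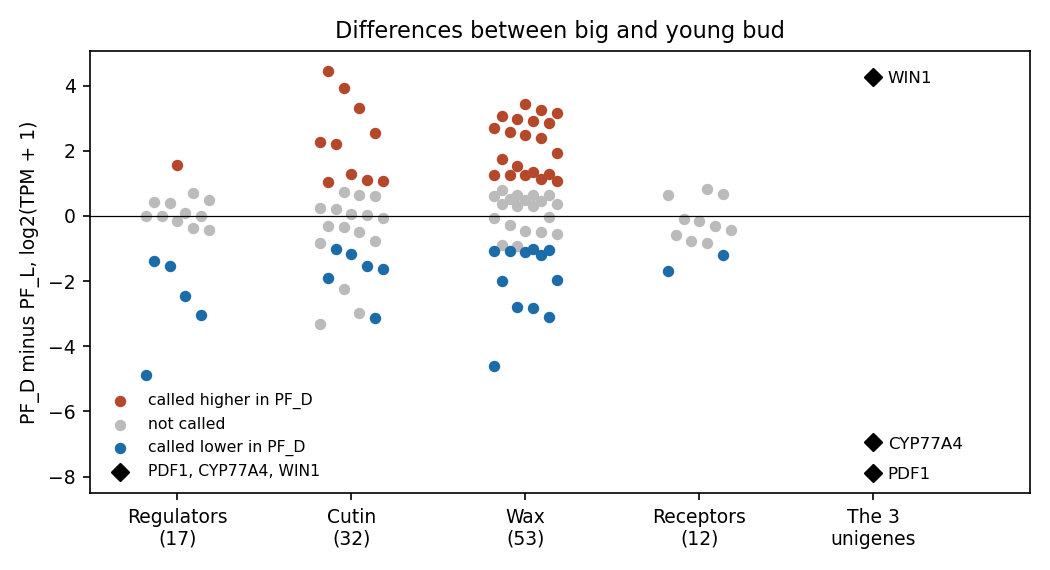
Differences between PF_D and PF_L on the log2(TPM + 1) scale for the 114 listed unigenes by group (number of unigenes in parentheses), colored by call, with PDF1, CYP77A4 and WIN1 as diamonds for comparison. The 32 cutin and 53 wax unigenes lie on both sides of 0, with 31 called higher and 18 lower (9.38% and 15.7% of all unigenes tested were). WIN1 (4.27) lies near the top of them while PDF1 (-7.89) and CYP77A4 (-6.95) lie below all listed unigenes. PDF1, CYP77A4 and WIN1 were chosen by such differences, so their outer places follow from that choice.

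Among the 17 unigenes of regulators, 5 were lower in PF_D than in PF_L (29.4%, against 15.7% of all unigenes tested) and 1 was higher (5.88%, against 9.38%). The 3 largest falls were those of ROC3 and HDG11, both HD-ZIP class IV factors, and of the second WIN1 unigene given above. ROC3 (TRINITY_DN28147_c1_g1), whose closest strawberry match is HDG5, was at 51.2, 86.7 and 74.6 TPM in PF_L, 28.6, 41.3 and 26.7 TPM in PF_Z and 0.89, 1.49 and 1.93 TPM in PF_D. It fell by 4.87 between PF_L and PF_D (standard error 0.25, limma adjusted p = 8.1e-07), most of it after PF_Z. HDG11 (TRINITY_DN26360_c0_g1), known in Arabidopsis for a role in trichome branching, fell by 3.03 to 0.15, 0.13 and 0.07 TPM in PF_D, against 6.73, 7.71 and 10.3 TPM in PF_L (limma adjusted p = 3.5e-05). HDG11 needed the PF_L libraries to pass the filter, which favored such a difference, and the call was kept with no filter. The 2 unigenes of PDF2, a factor that binds the PDF1 promoter in Arabidopsis, were looked up after their values had been seen and were not called in any comparison. PDF2 of TRINITY_DN25755_c0_g1 averaged 37.3 ± 3.32 TPM in PF_D and 41.4 ± 3.14 TPM in PF_L, and PDF2 of TRINITY_DN27737_c1_g1 averaged 43.6 ± 7.15 TPM in PF_D and 40.8 ± 0.260 TPM in PF_L (SD, n = 3 each). The regulator with the highest mean over all 9 libraries was ROC6 (TRINITY_DN27737_c1_g4), at 134, 141 and 160 TPM in PF_D and 113, 101 and 119 TPM in PF_L, a difference of 0.38 that was not called. The single call upward was the short MYB30 unigene (TRINITY_DN14600_c4_g2), which passed the filter through PF_D alone at 1.43, 4.87 and 2.22 TPM and lost its call without PF_L replicate 1 or 3.

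Of 32 unigenes of cutin synthesis, 10 were called higher by limma in PF_Z than in PF_L (31.2%, against 2.15% of all unigenes tested). Lower calls numbered 0, against 4.70% of all unigenes tested, a share at which few of 32 would be called, so the 0 tells little. At an unadjusted p under 0.05, 3 were lower. Without PF_Z replicate 3, 2 were called lower, and without PF_Z replicate 2, 1 was. Without PF_L replicate 2, 6 were called higher. Calls over all unigenes in either direction numbered 4694, 2047 and 1628 in these fits, in place of 3280. For PF_D against PF_L, 10 were higher (31.2%, against 9.38% of all unigenes tested) and 6 lower (18.8%, against 15.7%). CYP86A22 (TRINITY_DN27437_c0_g1), a P450 that in petunia hydroxylates the end of fatty acids for stigma lipids and whose family also makes cutin monomers, was at 29.5, 20.2 and 23.0 TPM in PF_L, 132, 95.5 and 150 TPM in PF_Z and 599, 597 and 451 TPM in PF_D. It rose by 2.32 between PF_L and PF_Z and by 2.13 between PF_Z and PF_D (standard error 0.21 each, limma adjusted p = 2.4e-04 and 1.0e-04). GPAT6 (TRINITY_DN23297_c0_g2), the acyltransferase needed for petal cutin in Arabidopsis, was at 38.2, 30.9 and 33.2 TPM in PF_L, 121, 85.5 and 129 TPM in PF_Z and 602, 452 and 532 TPM in PF_D. It rose by 3.91 between PF_L and PF_D (standard error 0.18, limma adjusted p = 5.1e-07). ABCG11 (TRINITY_DN27195_c0_g1), an ABC transporter that exports cuticle lipids, rose by 3.32 to 85.9, 107 and 61.6 TPM in PF_D, against 6.21, 8.33 and 7.70 TPM in PF_L (limma adjusted p = 3.6e-06). Each of the 3 was higher in PF_D than in PF_Z too, by 2.13 to 2.28 on the log2(TPM + 1) scale, while WIN1 differed by 0.30 between the same stages. These 3 were named as the largest rises between PF_L and PF_D, which favored such a further rise. Of all 32 cutin unigenes, 8 were called higher in PF_D than in PF_Z (25.0%, against 8.89% of all unigenes tested). Lower calls numbered 9 (28.1%, against 9.07%).

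Other cutin unigenes were lowest in the big bud. DCR (TRINITY_DN20757_c0_g1), an acyltransferase of cutin formation, was at 579, 725 and 549 TPM in PF_L, 373, 668 and 617 TPM in PF_Z and 129, 36.1 and 68.7 TPM in PF_D. It fell by 3.14 between PF_L and PF_D (standard error 0.39, limma adjusted p = 2.1e-04), and the other DCR unigenes (TRINITY_DN24570_c0_g1 and TRINITY_DN24570_c0_g2) fell by 1.90 and 1.63, the last by 1.01 without PF_D replicate 2. The most abundant cutin unigene was LTL1 (TRINITY_DN19295_c0_g3, only 277 bp long), a GDSL lipase. It was at 7916, 4040 and 6673 TPM in PF_L, 16403, 9541 and 18213 TPM in PF_Z and 1674, 34.5 and 3617 TPM in PF_D. Replicate 2 of PF_D was far below the other PF_D libraries for LTL1, and was the lowest of PF_D for the 3 DCR unigenes too. LTL1 was lower in PF_D than in PF_Z by 4.57 (standard error 1.34, limma adjusted p = 0.030), a call lost without any 1 of the PF_Z libraries (adjusted p = 0.057 to 0.079), and by 2.53 without PF_D replicate 2 (adjusted p = 0.006). Its difference of -3.32 between PF_D and PF_L did not pass (limma adjusted p = 0.081), was -1.28 without PF_D replicate 2 and passed without PF_D replicate 3 (adjusted p = 0.022).

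Of 53 unigenes of wax synthesis, 21 were called higher in PF_D than in PF_L (39.6%, against 9.38% of all unigenes tested) and 12 were called lower (22.6%, against 15.7%). The 12 lower were 6 with median-ratio scaling, 7 with quantile normalization and 5 with 5 TPM added, while 21 were called higher under both scalings. Calls over all unigenes in either direction numbered 11567, 11583 and 5384 in these fits, in place of 12042. In the first step, for PF_Z against PF_L, 6 were higher (11.3%, against 2.15% of all unigenes tested) and 5 lower (9.43%, against 4.70%). In the second, for PF_D against PF_Z, 16 were higher (30.2%, against 8.89%) and 7 lower (13.2%, against 9.07%). With median-ratio scaling the second step had 12 higher and 9 lower. The 5 lower in PF_Z were 2 without PF_L replicate 2 or 3, and 3 without PF_L replicate 1 or PF_Z replicate 1 or 2. In these fits 1458 to 2091 unigenes were called in all, in place of 3280. KCS12 (TRINITY_DN25155_c0_g1), a condensing enzyme of fatty acid elongation, was at 34.4, 18.9 and 30.5 TPM in PF_L, 63.6, 67.4 and 94.8 TPM in PF_Z and 364, 236 and 216 TPM in PF_D, a rise of 3.24 between PF_L and PF_D (standard error 0.27, limma adjusted p = 1.5e-05). CER26 (TRINITY_DN26145_c1_g1) and CER2 (TRINITY_DN14596_c0_g2) bear symbols of proteins that help elongate wax precursors in Arabidopsis. Both best match a CER1-like protein of woodland strawberry, and CER2 is itself described as ECERIFERUM 1. CER26 and CER2 rose by 3.43 and 3.14 to means of 59.3 ± 21.2 and 65.2 ± 18.4 TPM in PF_D, against 4.52 ± 1.44 and 6.32 ± 0.570 TPM in PF_L (SD, n = 3 each). CER1 (TRINITY_DN15211_c0_g2), of an enzyme of alkane formation and the wax unigene with the highest mean over all 9 libraries, rose by 1.06 to 437, 476 and 435 TPM in PF_D, against 234, 215 and 197 TPM in PF_L, a call lost without PF_L replicate 3, where the difference was just under 1. KCS1 (TRINITY_DN17706_c0_g1) was at 21.8, 24.3 and 25.0 TPM in PF_L, 5.31, 11.04 and 7.66 TPM in PF_Z and listed at 0, 0 and 0.02 TPM in PF_D, a fall of 4.61 between PF_L and PF_D (standard error 0.24, limma adjusted p = 9.2e-07). KCS11 (TRINITY_DN20905_c0_g1) and LACS1 (TRINITY_DN25739_c0_g2), a long-chain acyl-CoA synthetase, fell by 3.10 and 2.82 for PF_D against PF_L.

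As in the CYP77 family and with the name WIN1, some gene names held unigenes that moved in opposite directions. Between PF_D and PF_L this was so for 3 of the 54 names, KCS1, CUT1 and ABCG11, which are named here after their values were seen. The KCS1 unigene TRINITY_DN21890_c0_g2 rose by 1.75 to 49.1 ± 4.65 TPM in PF_D, against 13.9 ± 1.67 TPM in PF_L, while the KCS1 unigene given above fell to at most 0.02 TPM. The CUT1 unigene TRINITY_DN21888_c0_g1, of a wax elongation enzyme, rose by 2.92 to 256 ± 62.8 TPM in PF_D, against 32.5 ± 6.48 TPM in PF_L (SD, n = 3 each). The CUT1 unigene TRINITY_DN12417_c1_g1 was listed at 0, 0 and 0.02 TPM in PF_D, against 1.95, 4.28 and 3.29 TPM in PF_L, and is the 1 that passed the filter through PF_L alone. The ABCG11 unigene TRINITY_DN23870_c1_g3 was at 1.18, 4.80 and 1.84 TPM in PF_D, against 6.13, 9.53 and 4.41 TPM in PF_L. It fell by 1.17 (limma adjusted p = 0.039), though its libraries of these stages overlapped, while the ABCG11 unigene given above rose.

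Of 12 unigenes of receptors and signals of the outer cell layer, 2 were called lower and 0 higher by limma in PF_D than in PF_L, with 3 higher at an unadjusted p under 0.05 and 1 called higher without PF_D replicate 1. The 2 lower are 16.7% of the group, close to the 15.7% of all unigenes tested. ALE2 (TRINITY_DN24127_c1_g1), a receptor-like kinase of epidermis formation, fell by 1.69 to 9.53, 6.52 and 9.05 TPM in PF_D, against 35.3, 24.1 and 28.5 TPM in PF_L (limma adjusted p = 4.4e-04). ACR4 (TRINITY_DN19206_c0_g4), a receptor-like kinase that in Arabidopsis works with ALE2, fell by 1.21 to 5.96, 4.63 and 3.43 TPM in PF_D, against 12.5, 11.7 and 11.5 TPM in PF_L (limma adjusted p = 0.004), a call lost with 5 TPM added. The unigene of the group with the highest mean over all 9 libraries, ALE2 of TRINITY_DN27373_c0_g1, averaged 45.8 ± 6.65 TPM in PF_D and 78.9 ± 3.64 TPM in PF_L (SD, n = 3 each), a difference of -0.78 that was under the limit.

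**Figure D4:**
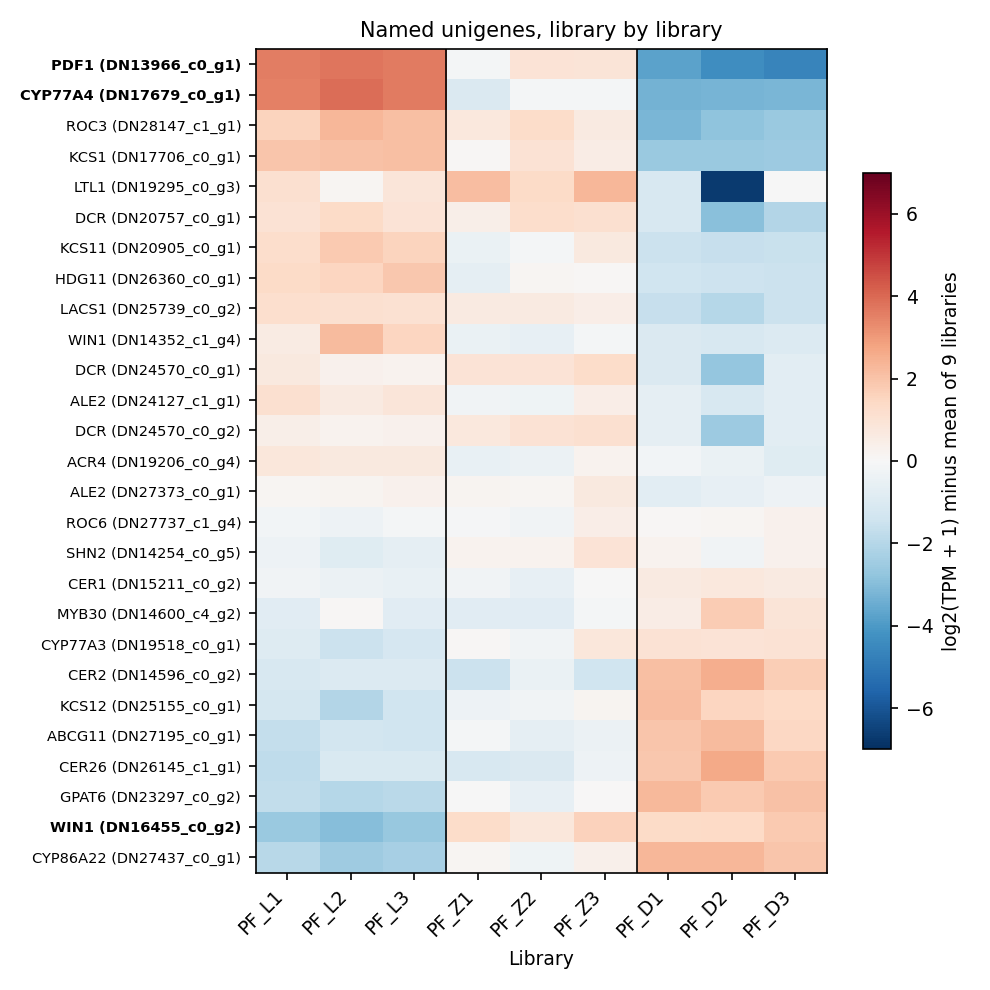
PDF1, CYP77A4 and WIN1 (bold) with the other named unigenes of the families and lists, as log2(TPM + 1) minus the mean of the 9 libraries, ordered by the difference between PF_D and PF_L. PDF1 and CYP77A4, chosen with these differences known, head the unigenes that were lower in PF_D. WIN1, chosen likewise, is already high in PF_Z, and LTL1 and DCR are lowest in PF_D replicate 2.

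The unigenes most like each of the 3 were sought among 10995 named unigenes with a mean of at least 10 TPM in their highest stage, by the Pearson correlation of log2(TPM + 1) over the 9 libraries. For PDF1 they were ICR2 (TRINITY_DN22819_c0_g4), an interactor of ROP GTPases, At5g64080 (TRINITY_DN18995_c0_g2), described as a lipid-transfer-like protein, FPP7 (TRINITY_DN27921_c1_g2), PERK9 (TRINITY_DN15744_c0_g1), a proline-rich receptor-like kinase, and the kinase ASK5 (TRINITY_DN17408_c0_g2), with r of 0.994 to 0.997. ICR2 was at 56.0, 58.3 and 52.2 TPM in PF_L, 20.5, 23.8 and 28.5 TPM in PF_Z and 5.74, 5.23 and 4.96 TPM in PF_D, a smaller difference than that of PDF1 on the same course. The correlation compares shapes and not sizes. For the 5, as for PDF1, PF_D was the lowest stage, which follows from their choice by correlation.

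For CYP77A4 the 5 were RPS19A (TRINITY_DN13415_c0_g1), a ribosomal protein, HMGB6 (TRINITY_DN23479_c0_g1), a chromatin protein, Cdca7l (TRINITY_DN22278_c0_g2), named after a cell division cycle-associated protein, TOP2 (TRINITY_DN27660_c0_g2), a DNA topoisomerase, and KN (TRINITY_DN15361_c0_g1), the syntaxin KNOLLE of cytokinesis, with r from 0.997 to 0.998. KN was at 39.4, 48.0 and 41.8 TPM in PF_L, 2.48, 5.42 and 4.34 TPM in PF_Z and 0.15, 0.15 and 0.64 TPM in PF_D. RPS19A, at 297, 296 and 291 TPM in PF_L, 209, 221 and 220 TPM in PF_Z and 176, 170 and 176 TPM in PF_D, had the same shape over a far smaller range. In KN, as in CYP77A4, replicate 2 was the highest of PF_L and replicate 1 the lowest of PF_Z. For WIN1 they were RBK1 (TRINITY_DN23404_c0_g1), a cytosolic receptor-like kinase, DXR (TRINITY_DN21447_c0_g2), an enzyme of plastid isoprenoid synthesis, gpmA (TRINITY_DN23643_c0_g2), described as phosphoglycerate mutase, HVA22F (TRINITY_DN25882_c0_g3) and SAM (TRINITY_DN22438_c0_g1), an S-adenosylmethionine synthase, with r from 0.989 to 0.993. RBK1 was at 11.5, 7.49 and 9.35 TPM in PF_L, 66.8, 44.6 and 88.9 TPM in PF_Z and 62.8, 60.5 and 74.2 TPM in PF_D, with the same order of replicates as WIN1 in PF_L and PF_Z. All points of these correlations share the same 9 libraries and 3 stages. The unigenes were picked by these correlations, so the orders of stages and replicates they share with CYP77A4 or WIN1 follow from that choice and are no further likeness.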

How the data were processed

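The authors sequenced petal RNA of 3 stages, with 3 biological replicates each, on an Illumina HiSeq. According to the methods of the study, reads were cleaned with Cutadapt and perl scripts, reads of the 9 libraries were assembled together with Trinity, and each cluster was represented by its longest transcript, the unigene, which was annotated with DIAMOND. The deposited values are TPM, scaled by the authors for length and to an equal total, and summed to 993148 to 994911 per library. Every deposited unigene reached 1 TPM in at least 1 library. The tool that estimated TPM is not given in the sources used here. The submitters' processing notes list Bowtie 0.12.2, HISAT2 2.0 and StringTie 1.3.0 without a role. Depth in reads was not used, so precision rests on the replicates alone.

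The 47924 of 50285 unigenes that reached 1 TPM in 3 libraries were tested by limma 3.58.1 (R 4.3.3) on the scale log2(TPM + 1), with a mean for each stage fitted over the 9 libraries, a variance trend and Benjamini-Hochberg adjustment over all of them. The count test of the study was not applied, since TPM are not counts. Calls needed a log2 difference of at least 1 in size and an adjusted p under 0.05, the limits of the study. PDF1, CYP77A4, WIN1 and the lists were chosen with earlier results of these data known. Named unigenes are these 3, their relatives by description or assembly cluster, in each group the one with the highest mean over all libraries and up to 3 of the largest called rises and falls between PF_D and PF_L, and the 5 most correlated with each of the 3. An ACT domain protein that shares the symbol ACR4 was left out. The procedure was tested on simulated data. Alternatives were other pseudocounts, filters, scalings and models, a replicate block and leaving out each library. Plots were made in Python 3.11.15 using matplotlib 3.10.9.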

Additional observations from a re-analysis of the deposited data

How the results depend on the processing

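PDF1, CYP77A4 and WIN1 kept the direction of every stage difference under all 18 alternatives, and only the pseudocount moved the values by more than the spread of replicates. With 0.1 TPM added in place of 1, the differences between PF_D and PF_L were -8.74 for PDF1, -9.82 for CYP77A4 and 4.60 for WIN1, and with 5 TPM added -6.37, -4.73 and 3.37. Between PF_Z and PF_L, WIN1 differed by 4.30 and 3.08 with 0.1 and 5 TPM added, and CYP77A4 by -3.53 with 5 TPM added. Between PF_D and PF_Z, PDF1 differed by -5.63 and -3.37 and CYP77A4 by -5.52 and -1.20. The added value itself sets the size of differences at a few TPM.

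Without single libraries, PDF1 ranged from -8.13 to -7.70 between PF_D and PF_L, CYP77A4 from -7.03 to -6.83 and WIN1 from 4.12 to 4.36. Of the 114 listed unigenes, 15 in place of 25 were called lower in PF_D than in PF_L with 5 TPM added. Over all unigenes, calls in either direction then numbered 5384 in place of 12042. Between PF_Z and PF_L, 2 in place of 8 were called lower with 5 TPM added, 5 with a filter of 5 TPM and 3 to 13 without single libraries. Calls over all unigenes in either direction were 3280 for that comparison. They numbered 1356 with 5 TPM added, 2348 with a filter of 5 TPM and 1458 to 4694 without single libraries. Counted over the 89 listed unigenes of at least 500 bp only, an alternative added after seeing the data, 25 were called higher and 21 lower for PF_D against PF_L. The share over all unigenes of that length was not computed. Same-numbered libraries of different stages did not deviate together (correlations of -0.10 to 0.04), so the numbers were not taken as pairs. With a replicate block, 32 listed unigenes were called higher and 26 lower between PF_D and PF_L, and 11794 in place of 12042 unigenes were called in all. Of 1003 alternative fits of named unigenes outside the 3, 43 lost a call, 3 gained one and 0 changed sign.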
